A study of Sus scrofa with 9 samples.

Results

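Genes of the sarcomere's M-band and thick filament, together with titin and its cap protein, were followed in the left ventricle of the pig over the first 2 weeks after birth. The 9 genes were listed by name, without a threshold on any measured value, but with earlier results of these data known. MYOM1, MYOM3, MYBPC3, MYH7, MYL2, MYL3 and TCAP were found by symbol, and MYOM2 through its Ensembl identifier, ENSSSCG00000015747, in a table of gene names. This gave 8 members of 22629 rows, and titin, TTN, is not analysed here. All libraries came from the myocardium of wild type pigs that had received no treatment, taken on postnatal day 0, day 7 or day 15, with 3 libraries per age. Each library keeps the number from its label, which is 4, 5 or 6 at day 0, 2, 5 or 6 at day 7, and 1, 2 or 6 at day 15. Whether 3 animals stand behind the 3 libraries of an age is not stated, so p-values cover only the spread among the libraries, which may be technical.

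The thick filament of heart muscle is built from myosin heavy chains, each carrying an essential and a regulatory light chain, with myosin-binding protein C bound along part of its length. In the middle of the sarcomere the M-band links neighbouring thick filaments through the myomesin proteins, and titin spans from the M-band to the Z-disc, where the cap protein telethonin binds its end. Titin and the myomesins are known for elastic behaviour that differs between their isoforms and between developmental stages of the mammalian heart.

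Levels are given in TPM, the share of each transcript in a library after correction for transcript length, so levels of different genes can be set side by side. The depth behind a value is unknown. The 9 libraries listed 11290 to 12164 rows at 1 TPM or more, and a single unnamed row, ENSSSCG00000032277, took 24.0% to 46.0% of all TPM. Mitochondrially encoded genes took 16.5% to 24.6%. The cardiomyocyte markers (8 of 8 measured, none under 1 TPM in every library) summed to 43618 to 51949 TPM at day 0, 33211 to 40508 TPM at day 7, and 30491 to 43207 TPM at day 15. Every day 0 sum thus lay above every later one. Without ACTC1, cardiac actin, which was called lower at both later ages (-1.19 and -1.72, limma adjusted p = 0.0129 and 0.00210), the other 7 summed to 31045 to 36593, 28716 to 32420 and 27539 to 38599 TPM, which overlap. Of these 7, NKX2-5 was called lower between day 15 and day 0 (-0.60, limma adjusted p = 0.0472). The sum of the 7 is mostly PLN, TNNT2 and TNNI3, and leaving out ACTC1 was chosen after its values were seen. Fast skeletal muscle markers summed to 3.76 to 13.5 TPM over all libraries, and 7 of the 10 measured were under 1 TPM throughout. The sum of fibroblast markers (8 of 8 measured) was 946 to 1462 TPM at day 0, 1651 to 2266 TPM at day 7, and 1181 to 1496 TPM at day 15. That of endothelial markers (7 of 8) was 208 to 245, 312 to 342 and 195 to 233 TPM at the same ages. Smooth muscle and pericyte markers (7 of 7) gave 455 to 664, 321 to 423 and 259 to 291 TPM. Between day 15 and day 0 limma called 5 of them lower and 0 higher, where 18.4% of all rows were called lower. Macrophage and leukocyte markers (8 of 8) gave 44.8 to 50.4, 38.7 to 64.1 and 33.9 to 105 TPM. Erythroid markers (6 of 7) gave 392 to 1260, 553 to 1213 and 433 to 653 TPM. The atrial markers (7 of 8) stood apart in the number 5 libraries, with a sum of 2962 TPM in day 0 replicate 5 and 2332 TPM in day 7 replicate 5, against 150 to 838 TPM in the other libraries. Those 2 sums are mostly NPPA, at 2087 and 1446 TPM, and MYL4, at 870.1 and 881 TPM, while SLN, MYBPHL and BMP10 were under 1 TPM in every library. Both NPPA (-3.96) and NR2F1 (-0.53) of this list were called lower between day 15 and day 0 (limma adjusted p = 0.0393 and 0.0466). What these cell type markers contribute to the results was not tested. In bulk tissue fewer cells of a type and less RNA per cell cannot be told apart.

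The members spanned a wide range of levels. The essential light chain MYL3 was the most abundant, at place 6 to 8 of all rows in every library, followed by the heavy chain MYH7 at place 11 to 18 and the regulatory light chain MYL2 at place 30 to 50. MYBPC3 and TCAP came next and overlapped at day 15, though not at day 0 or day 7. MYOM1 lay at place 226 to 337, while MYOM2 and MYOM3 were the lowest. At day 0 the libraries of MYOM2 and MYOM3 overlapped too. Together the 8 members took 2.46% to 3.24% of all TPM.

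**Figure D1:**
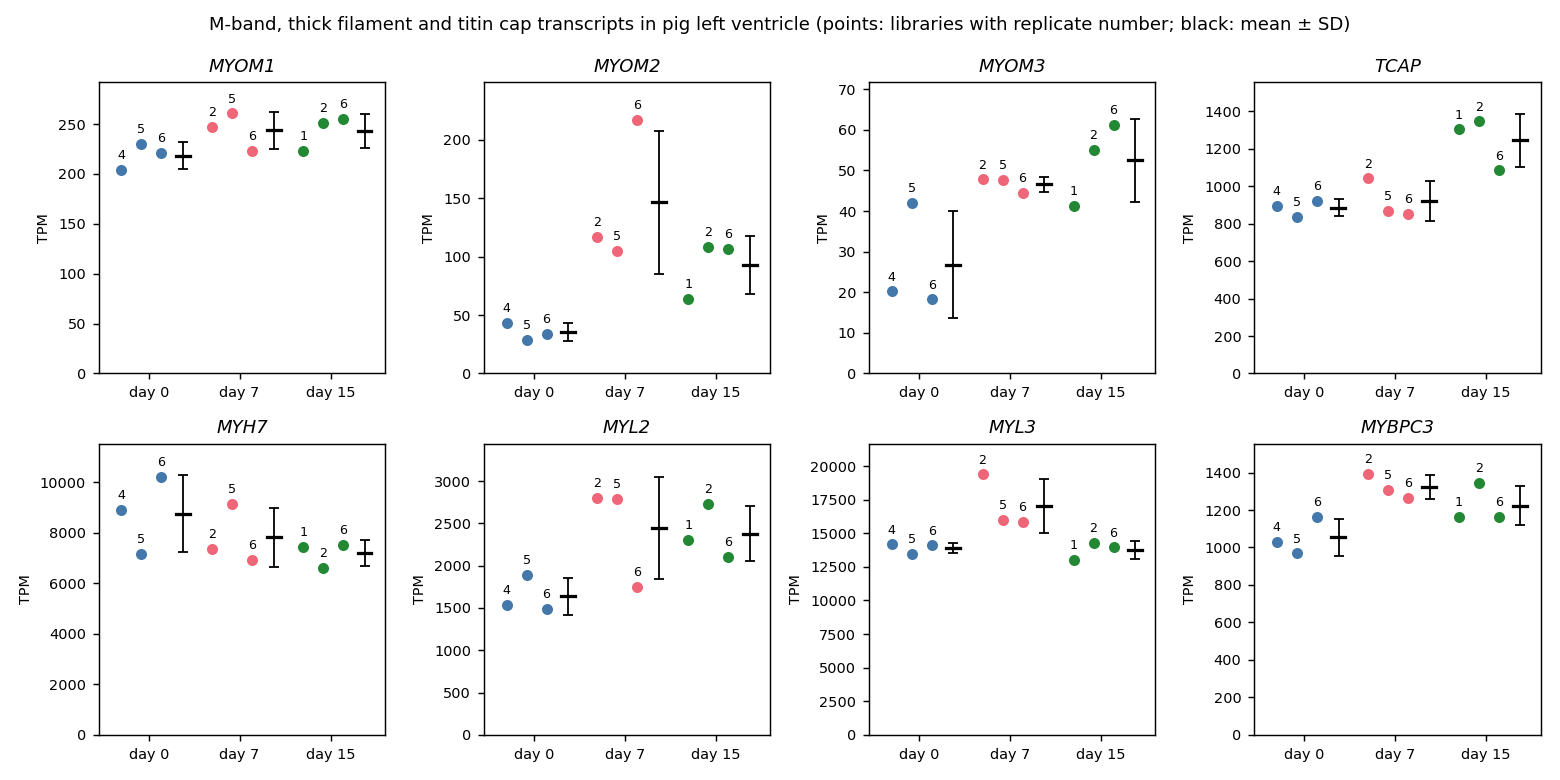
Each panel plots the TPM of 1 member on a linear axis from 0, with 1 point per library, its replicate number, and the mean ± SD (n = 3) at each age in black. MYOM2 is at 28.8 to 43.4 TPM at day 0 and at 63.8 to 217 TPM at the later ages, while MYOM1 stays between 204 and 261 TPM throughout.

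Of the 3 myomesins, MYOM2 and MYOM3 rose in the first week and MYOM1 did not pass the test. Whether the changes of the 3 differ from each other is taken up with the ratios between them. Myomesin 2, also called M-protein, is an M-band component known from fast skeletal and adult cardiac fibres. MYOM2 had 43.4, 28.8 and 34.0 TPM in day 0 replicates 4, 5 and 6, 117, 105 and 217 TPM in day 7 replicates 2, 5 and 6, and 63.8, 108 and 106 TPM in day 15 replicates 1, 2 and 6. All 6 later libraries lay above all 3 newborn ones, and day 7 replicate 6 and day 15 replicate 1 stood away from their partners, high and low. Between day 7 and day 0 the log2 fold change on the log2(TPM + 1) scale was 1.96 ± 0.29 (SE), with a limma adjusted p of 0.00325. Of all rows tested, 0.220% had a larger one. Between day 15 and day 0 it was 1.35 ± 0.29, with a limma adjusted p of 0.00854. Both calls were kept in all 17 alternative settings, with log2 fold changes of 1.64 to 2.16 and 1.21 to 1.65. Between day 15 and day 7 the difference was -0.61 (95% confidence interval -1.24 to 0.01) and did not pass (limma adjusted p = 0.397).

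The change of MYOM2 in the second week was lower than that in the first by 2.58 ± 0.50 on the log2 scale (-2.58, limma adjusted p = 0.0328). This contrast of the 2 weeks called 1.92% of all rows, 0.391% higher and 1.53% lower, and MYOM2 alone among the 8 members. In the same contrast the endothelial markers PECAM1 (-1.43) and CDH5 (-1.59), 2 of 7 measured, were called lower (limma adjusted p = 0.0340 and 0.0332). The other endothelial markers were not called, with TIE1 at -1.47, VWF at -0.63, TEK at -0.58, KDR at -0.07 and EMCN the other way at 0.90. The fibroblast markers had 0 of 8 called and a median of -0.83. Day 7 replicate 6, the highest MYOM2 library, had the highest mitochondrial share of TPM, at 24.6%. Day 15 replicate 1, the lowest of its age, had the lowest mitochondrial share, at 16.5%, and the highest share in the top row, at 46.0%. What these markers and shares contribute was not tested. Without day 7 replicate 6 the MYOM2 value was -1.93 and did not pass (limma adjusted p = 0.103). Leaving out replicate 2 of day 7 (-2.82, 0.102), replicate 4 of day 0 (-2.73, 0.0652) or replicate 6 of day 0 (-2.56, 0.0828) also ended the MYOM2 call. Over all rows, this contrast called 0 without day 7 replicate 6 and 3 without day 7 replicate 2. It called 14 without day 0 replicate 4 and 16 without day 0 replicate 6, in place of 236.

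MYOM3, the myomesin described in slow and intermediate skeletal fibres, was the least abundant member. It had 20.2, 42.0 and 18.3 TPM in day 0 replicates 4, 5 and 6, 47.8, 47.7 and 44.5 TPM in day 7 replicates 2, 5 and 6, and 41.3, 55.1 and 61.2 TPM in day 15 replicates 1, 2 and 6. Day 0 replicate 5 stood with the older libraries, above day 15 replicate 1, and below each day 7 library. MYOM3 rose by 0.87 ± 0.27 (SE) between day 7 and day 0 (limma adjusted p = 0.0462) and by 1.02 ± 0.27 between day 15 and day 0 (limma adjusted p = 0.0193). Day 0 replicate 5 also had the highest sum of atrial markers, and without it the values were 1.24 and 1.39 (limma adjusted p = 0.00261 and 0.00157). The first-week call was lost when day 0 replicate 4 or 6, any one of the day 7 libraries or day 15 replicate 6 was left out (0.66 to 0.91, limma adjusted p = 0.0557 to 0.193). The call over both weeks was lost without replicate 4 or 6 of day 0 or replicate 6 of day 15 (0.81 to 0.91, limma adjusted p = 0.0699 to 0.103).

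MYOM1, the myomesin found in all striated muscle, was the steadiest member. It had 204, 230 and 221 TPM in day 0 replicates 4, 5 and 6, 247, 261 and 223 TPM in day 7 replicates 2, 5 and 6, and 223, 251 and 255 TPM in day 15 replicates 1, 2 and 6. The ages overlapped, and the highest library stood at 1.28 times the lowest, where MYOM2 reached 7.54 times and MYOM3 3.35 times. Its SD within ages was 0.103 on the log2 scale, where the median of all rows tested was 0.242. The differences were 0.16 between day 7 and day 0 (95% confidence interval -0.17 to 0.49) and 0.15 between day 15 and day 0 (-0.18 to 0.49), with limma adjusted p = 0.490 and 0.479.

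TCAP encodes telethonin, which joins the ends of titin molecules at the Z-disc. It had 895, 835 and 923 TPM in day 0 replicates 4, 5 and 6, 1042, 868 and 854 TPM in day 7 replicates 2, 5 and 6, and 1304, 1346 and 1084 TPM in day 15 replicates 1, 2 and 6. The day 15 libraries lay above every earlier library, while day 7 and day 0 overlapped. TCAP rose by 0.49 ± 0.16 (SE) between day 15 and day 0, with a limma adjusted p of 0.0460. This call was lost when any library but day 7 replicates 2 and 6 was left out (0.43 to 0.58, limma adjusted p = 0.0626 to 0.119) and in 11 of 17 alternative settings in all. The second week gave 0.43 (95% confidence interval 0.08 to 0.78), which did not pass over all rows (limma adjusted p = 0.302), and the first week 0.05 (-0.30 to 0.41, limma adjusted p = 0.835).

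None of the 4 thick filament genes passed the threshold between any pair of ages when all 9 libraries and the deposited TPM scale were used in 1 fit. MYL2 and MYBPC3 passed in some other settings. MYH7, the slow beta myosin heavy chain that dominates ventricles of large mammals, had 8921, 7160 and 10218 TPM in day 0 replicates 4, 5 and 6. It had 7361, 9152 and 6946 TPM in day 7 replicates 2, 5 and 6, and 7450, 6605 and 7539 TPM in day 15 replicates 1, 2 and 6. The ages overlapped in each comparison. The difference between day 15 and day 0 was -0.27 (95% confidence interval -0.67 to 0.12, limma adjusted p = 0.289) and that between day 7 and day 0 was -0.16 (-0.56 to 0.24, limma adjusted p = 0.559). The heavy chain genes are near-identical over much of their length, and the handling of reads that match several of them is not stated, so the MYH7 level is less certain than the others.

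MYL2, the ventricular regulatory light chain, had 1532, 1887 and 1492 TPM in day 0 replicates 4, 5 and 6, 2800, 2786 and 1749.6 TPM in day 7 replicates 2, 5 and 6, and 2301, 2733 and 2108 TPM in day 15 replicates 1, 2 and 6. All day 15 libraries lay above all newborn ones, and at day 7 replicate 6 fell among the newborn values. The log2 fold change was 0.54 between day 15 and day 0 (95% confidence interval 0.08 to 1.00, limma adjusted p = 0.0783) and 0.55 between day 7 and day 0 (0.10 to 1.01, limma adjusted p = 0.0866). Without day 7 replicate 6, which was the lowest of its age for MYL2 and the highest for MYOM2, both passed (0.54 and 0.78, limma adjusted p = 0.0322 and 0.0305). MYL2 also passed between day 15 and day 0 in the fit on those 2 ages alone (limma adjusted p = 0.0369).

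MYL3, the ventricular and slow skeletal essential light chain, was highest at day 7. It had 14172, 13493 and 14095 TPM in day 0 replicates 4, 5 and 6, 19373, 15973 and 15819 TPM in day 7 replicates 2, 5 and 6, and 12999, 14273 and 13941 TPM in day 15 replicates 1, 2 and 6. The day 7 libraries overlapped neither of the other ages. The differences were 0.29 between day 7 and day 0 (95% confidence interval -0.05 to 0.62) and -0.31 between day 15 and day 7 (-0.64 to 0.03), and neither passed (limma adjusted p = 0.207 and 0.425). Day 15 differed from day 0 by -0.02 (-0.35 to 0.31, limma adjusted p = 0.939).

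MYBPC3, the cardiac myosin-binding protein C that tunes crossbridge cycling, had 1031, 968 and 1162 TPM in day 0 replicates 4, 5 and 6, 1391, 1306 and 1265 TPM in day 7 replicates 2, 5 and 6, and 1161, 1344 and 1163 TPM in day 15 replicates 1, 2 and 6. Its day 7 libraries all lay above the newborn ones, and the day 15 libraries reached down to the newborn range. The difference was 0.33 between day 7 and day 0 (95% confidence interval -0.01 to 0.66, limma adjusted p = 0.154) and 0.22 between day 15 and day 0 (-0.12 to 0.55, limma adjusted p = 0.320).

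Counted over the members, 2 of 8 rose and 0 fell between day 7 and day 0, where 16.6% of all 12268 rows tested were called and 7.67% were called higher. Of those rows, 8.88% were called lower. All 8 members passed the filter on low values, and each was above it in every library. The median log2 fold change was 0.31 over the members and -0.04 over all rows. Between day 15 and day 0, 3 of 8 rose and 0 fell, where 23.9% of all rows were called and 5.53% were called higher and 18.4% lower, with medians of 0.35 and -0.19. Between day 15 and day 7 limma called 0 of 8, with 1 member (TCAP) at an unadjusted p under 0.05, where 0.171% of all rows were called, 0.0408% higher and 0.13% lower. The medians there were -0.06 and -0.15. The libraries of day 7 all lay above those of day 0 for 4 of 8 members and below for 0. Over all rows 41.4% did not overlap in that pair, 17.6% higher and 23.8% lower. The libraries of day 15 all lay above those of day 0 for 3 of 8 members and below for 0, where 39.9% of all rows did not overlap, 9.45% higher and 30.5% lower. Between day 15 and day 7 TCAP lay wholly above and MYL3 wholly below, where 19.4% of all rows did not overlap, 1.46% higher and 17.9% lower. The comparisons with day 0 share the newborn libraries. With day 0 replicate 5 and day 7 replicate 5 both left out, the counts were 2, 2 and 0 for day 7 against day 0, day 15 against day 0 and day 15 against day 7. Over all 11998 rows then tested, 1897, 3071 and 144 were called for the same pairs.

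**Figure D2:**
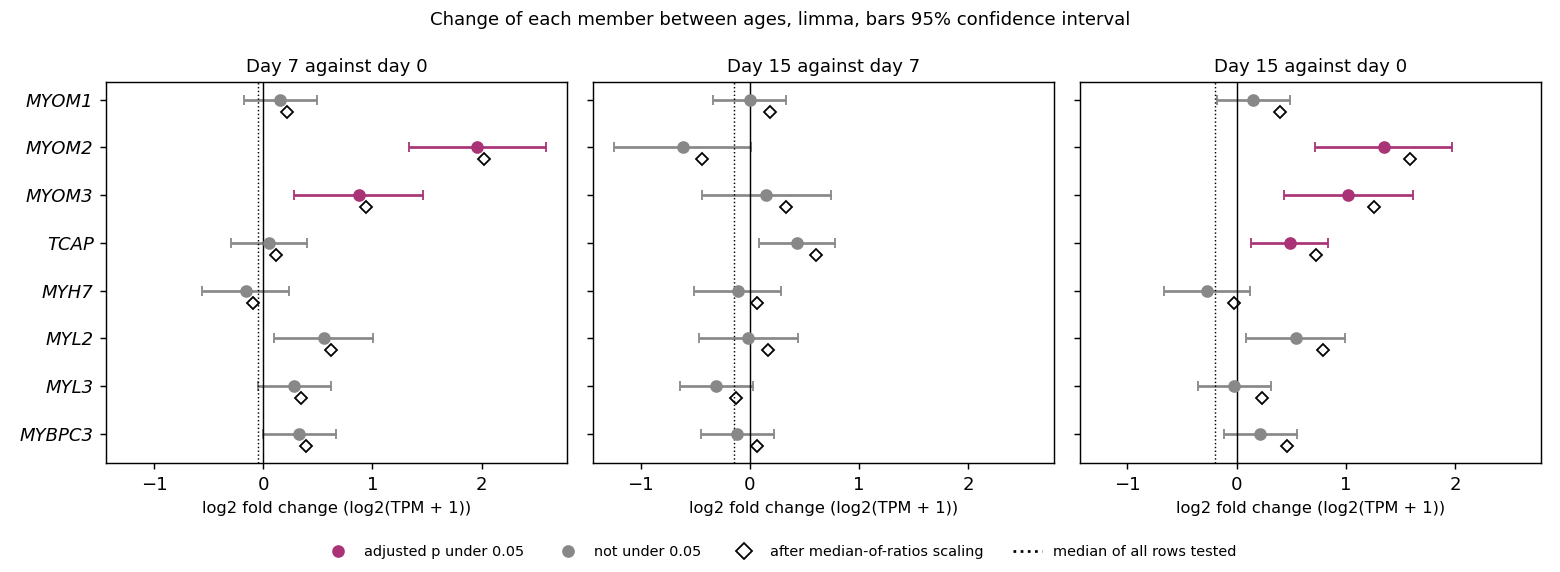
The log2 fold change of each member on the log2(TPM + 1) scale is plotted for the 3 pairs of ages, with the limma 95% confidence interval. Coloured points passed an adjusted p of 0.05, open diamonds are values after median-of-ratios scaling, and the dotted line is the median of all rows tested. MYOM2 is farthest right in the first week at 1.96 and over both weeks at 1.35.

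These values depend on what each library is scaled to. Median-of-ratios scaling moved the median of all rows by 0.21 (log2) between day 15 and day 0, by 0.15 between day 15 and day 7 and by 0.06 between day 7 and day 0. Relative to the median of all rows between day 15 and day 0, MYOM2 stood at 1.54, MYOM3 at 1.22, MYL2 at 0.73 and TCAP at 0.68 on the log2 scale. MYBPC3 stood at 0.41, MYOM1 at 0.35, MYL3 at 0.17 and MYH7 at -0.08. After median-of-ratios scaling 6 of 8 members were called between day 15 and day 0, all higher, with MYOM1 (0.40), MYBPC3 (0.46) and MYL2 (0.79) added and limma adjusted p = 0.0262, 0.0303 and 0.0163. Over all rows 3814 of 12247 were then called, 1925 higher and 1889 lower. On the deposited TPM 2933 of 12268 were called, 678 higher and 2255 lower. The share of called rows that were higher was thus 50.5%, in place of 23.1%. Between day 7 and day 0 the shares were 50.4% and 46.3%. With totals that left out mitochondrial genes and the 20 most abundant rows, MYOM1 (0.33), MYBPC3 (0.50) and MYL2 (0.73) were also called between day 7 and day 0 (limma adjusted p = 0.0426, 0.0131 and 0.0100). Over all rows 3582 of 12268 were then called between day 7 and day 0, 2334 higher and 1248 lower. The share of called rows that were higher was 65.2% there and 50.4% between day 15 and day 0. MYH7 was not called under any of the scalings tried, and its value between day 15 and day 0 was -0.02 at the upper end of all settings.

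Ratios between members within a library do not move with the library's total. MYOM2 stood at 0.164 ± 0.0449 of the MYOM1 level at day 0, 0.616 ± 0.310 at day 7 and 0.378 ± 0.0801 at day 15 (mean ± SD, n = 3 per age). The 3 newborn ratios were 0.213, 0.125 and 0.154, all below the 0.286 to 0.972 of the later libraries. An exact permutation test over the 3 ages gave p = 0.0107, and 0.0536 after Benjamini-Hochberg adjustment over the 5 ratios tested. The ratio of MYOM3 to MYOM1 was 0.121 ± 0.0534, 0.192 ± 0.00828 and 0.215 ± 0.0278 (exact permutation p = 0.0214, adjusted 0.0536). Neither passed after adjustment. The smallest p that 3 ages of 3 libraries allow is 0.00357.

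Relative to MYH7, MYBPC3 stood at 0.121 ± 0.0119 at day 0, 0.171 ± 0.0249 at day 7 and 0.171 ± 0.0280 at day 15 (SD, n = 3, exact permutation p = 0.0679, adjusted 0.0893). All 6 later ratios, 0.143 to 0.203, lay above the newborn 0.114 to 0.135. The MYL2 ratio to MYH7 was 0.194 ± 0.0618, 0.312 ± 0.0646 and 0.334 ± 0.0706 (exact permutation p = 0.0714, adjusted 0.0893). Day 0 replicate 5, at 0.264, was within the later range. The MYL3 ratio to MYH7 was 1.62 ± 0.254, 2.22 ± 0.446 and 1.92 ± 0.216 (exact permutation p = 0.143, adjusted 0.143). None of the 3 passed. Without day 0 replicate 5 the adjusted exact permutation p was 0.0476 for MYL2 to MYH7, MYOM2 to MYOM1 and MYOM3 to MYOM1 alike. Without day 7 replicate 5 it was 0.0179 for MYOM2 to MYOM1 and 0.0446 for MYBPC3 to MYH7.

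**Figure D3:**
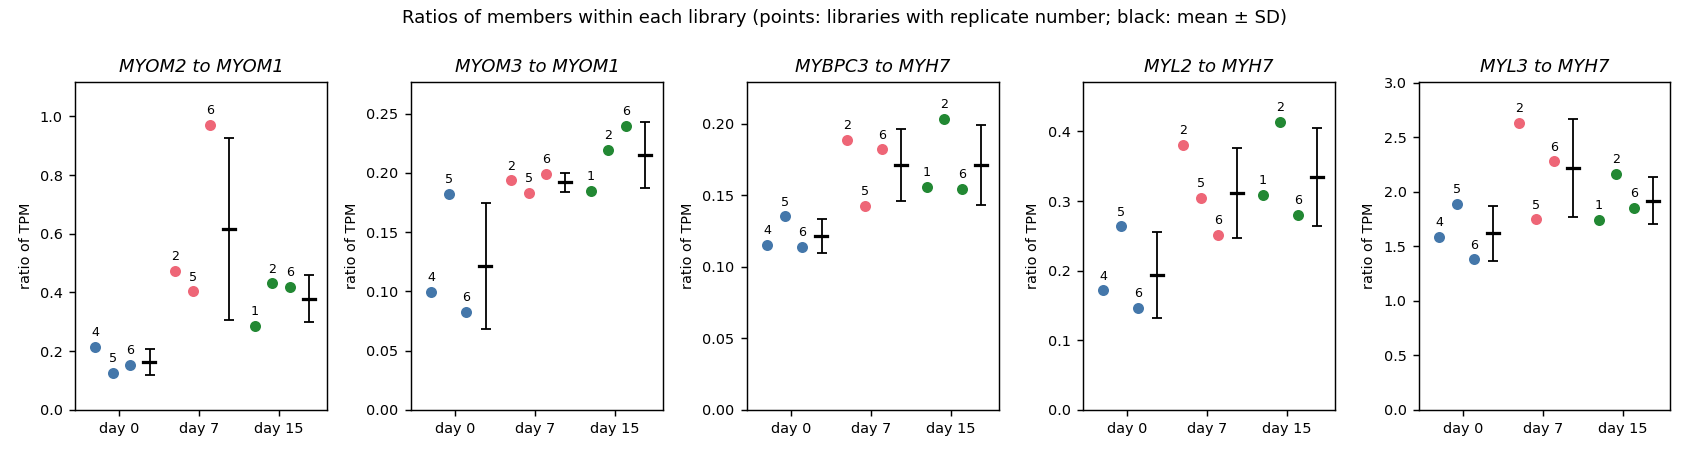
Each panel plots the ratio of the TPM of 2 members within a library, on a linear axis from 0, with the replicate number and the mean ± SD (n = 3) at each age in black. MYOM2 to MYOM1 is at 0.125 to 0.213 at day 0 and reaches 0.972 in day 7 replicate 6.

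Other sarcomeric myosins and myosin-binding genes were few. Of 16 listed, 11 were measured and 4 passed the filter, and limma called 0 of these 4 between any pair of ages, with 1 of 4 at an unadjusted p under 0.05 in each pair. Of all rows, 16.6% were called between day 7 and day 0, 23.9% between day 15 and day 0 and 0.171% between day 15 and day 7. The most abundant of this list was MYL4, the atrial and fetal essential light chain. MYL4 had 218, 870 and 339 TPM in day 0 replicates 4, 5 and 6, 175, 881 and 110 TPM in day 7 replicates 2, 5 and 6, and 167, 450.5 and 262 TPM in day 15 replicates 1, 2 and 6. Its level was thus highest in the number 5 libraries, and the ages overlapped. Of the other heavy chains in this list, MYH7B was at 129 to 252 TPM, with overlapping ages. The embryonic heavy chain MYH3 was at 1.21 to 5.60 TPM, and the fast or perinatal MYH4 and MYH8 were under 0.1 TPM in every library. MYH6, the alpha heavy chain, is not analysed here.

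Among 25 partners of the M-band, titin and the thick filament, 23 passed the filter. Between day 7 and day 0, 2 rose and 2 fell, and between day 15 and day 0, 3 rose and 1 fell, with medians of 0.10 and -0.08. Of all rows tested, 7.67% were called higher and 8.88% lower between day 7 and day 0, and 5.53% and 18.4% between day 15 and day 0. Between day 15 and day 7 limma called 0, with 6 at an unadjusted p under 0.05, where 0.171% of all rows were called. CKM, the muscle creatine kinase that binds at the M-band, had 187, 170.0 and 174 TPM in day 0 replicates 4, 5 and 6, 406, 311 and 252 TPM in day 7 replicates 2, 5 and 6, and 537, 369 and 558 TPM in day 15 replicates 1, 2 and 6. It rose by 1.44 ± 0.21 (SE) between day 15 and day 0 (limma adjusted p = 0.00186), a call kept in all 17 alternative settings. Its rise between day 7 and day 0 (0.84, limma adjusted p = 0.0220) was lost without replicate 4 or 6 of day 0 or replicate 2 of day 7 (0.66 to 0.88, limma adjusted p = 0.0652 to 0.0903).

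CMYA5, myospryn, which binds titin, rose between day 7 and day 0 (0.98, limma adjusted p = 0.0314) and between day 15 and day 0 (0.90, limma adjusted p = 0.0315). Both calls were lost without any one newborn library, the first also without replicate 5 or 6 of day 7, and the second also without replicate 2 or 6 of day 15 (0.68 to 1.03, limma adjusted p = 0.0608 to 0.105). ANKRD23, a titin-binding ankyrin repeat protein, rose by 1.08 between day 15 and day 0 (limma adjusted p = 0.0142, and 0.0551 and 0.0557 without day 0 replicate 6 and day 15 replicate 6, at 1.11 and 0.75). FHL1, a LIM protein that binds titin, fell by 1.09 on the log2 scale between day 15 and day 0 (limma adjusted p = 0.0176, and 0.0749 and 0.0630 without the same 2 libraries). FHL1 also fell by 0.99 between day 7 and day 0 (limma adjusted p = 0.0352), and TRIM54, a muscle ubiquitin ligase, fell by 0.93 (limma adjusted p = 0.0273). These first-week falls were lost without any one newborn library, day 7 replicate 2 or day 7 replicate 6 (-0.62 to -1.17, limma adjusted p = 0.0502 to 0.124). ANKRD1, the most abundant partner, had 418 ± 109 TPM at day 0, 638 ± 350 TPM at day 7, and 841 ± 351 TPM at day 15 (SD, n = 3) and did not pass. RBM20, the splicing factor known for titin, had 40.8, 33.8 and 26.5 TPM as means of the 3 ages and did not pass. After median-of-ratios scaling the partner counts were 3 higher and 7 lower between day 7 and day 0, and 8 higher and 2 lower between day 15 and day 0. Of all 12247 rows tested under that scaling, 1913 were called higher and 1879 lower between day 7 and day 0. Between day 15 and day 0 these were 1925 and 1889.

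Among 20 Z-disc genes, 19 were measured and passed the filter. Between day 7 and day 0, 1 rose and 3 fell, between day 15 and day 0, 2 rose and 4 fell (medians -0.13 and -0.18), and between day 15 and day 7 limma called 0, with 0 at an unadjusted p under 0.05. Of all rows, 7.67% were called higher and 8.88% lower between day 7 and day 0, and 5.53% and 18.4% between day 15 and day 0. Between day 15 and day 7, 0.171% of all rows were called. PDLIM3, a LIM protein bound to alpha-actinin, had 9.37, 19.2 and 12.4 TPM in the newborn libraries, 2.94, 7.36 and 2.46 TPM in those of day 7, and 2.14, 2.73 and 2.78 TPM in those of day 15. It fell by 2.00 between day 15 and day 0 and by 1.54 between day 7 and day 0 (limma adjusted p = 0.00256 and 0.0107), and both calls were kept in all 17 settings. PDLIM5, a related Z-disc protein, rose by 0.97 between day 15 and day 0 (limma adjusted p = 0.0179). That call was lost without replicate 4 or 6 of day 0 or replicate 6 of day 15 (0.80 to 0.98, limma adjusted p = 0.0579 to 0.0698).

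CSRP3, the muscle LIM protein that binds telethonin and the most abundant Z-disc gene, had 1859.5, 2202 and 2149 TPM in the newborn libraries, 1910.1, 1869 and 1056 TPM in those of day 7, and 1159.9, 1512 and 921 TPM in those of day 15. It fell by 0.81 between day 15 and day 0 (limma adjusted p = 0.0326), which was the opposite direction from TCAP. This call was lost after median-of-ratios scaling, and without any one newborn library, day 15 replicate 1 or day 15 replicate 6 (-0.64 to -0.89, limma adjusted p = 0.0596 to 0.128). BAG3, a cochaperone of the Z-disc, fell by 0.68 and 0.67 between day 7 and day 0 and between day 15 and day 0 (limma adjusted p = 0.0435 and 0.0356). Without replicate 4 or 6 of day 0 or replicate 6 of day 15 neither BAG3 call held. The first was also lost without replicate 5 of day 0 or replicate 2 or 6 of day 7, and the second without day 15 replicate 1 (-0.53 to -0.76, limma adjusted p = 0.0545 to 0.176). The calsarcin gene MYOZ1 was low, at 2.75, 6.35 and 3.03 TPM at day 0 and 0.951 to 1.91 TPM later, and fell by 1.15 between day 15 and day 0 (limma adjusted p = 0.00865), a value that was -1.61 and -0.53 with pseudocounts of 0.1 and 5 TPM. Its first-week fall of 0.88 (limma adjusted p = 0.0329) was lost without day 0 replicate 5, day 0 replicate 6 or any one day 7 library (-0.58 to -1.01, limma adjusted p = 0.0563 to 0.105). XIRP2, an actin-binding Xin repeat gene, was at 0.0199 to 0.285 TPM at day 0, 1.496 to 3.03 TPM at day 7, and 0.833 to 3.43 TPM at day 15. It met the filter on low values only through the later libraries, so that a difference from day 0 was built in, and it is the Z-disc gene counted as higher between day 7 and day 0 and 1 of the 2 between day 15 and day 0. ACTN2, the Z-disc actin crosslinker, had 708, 645 and 618 TPM as means of the 3 ages and did not pass.

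**Figure D4:**
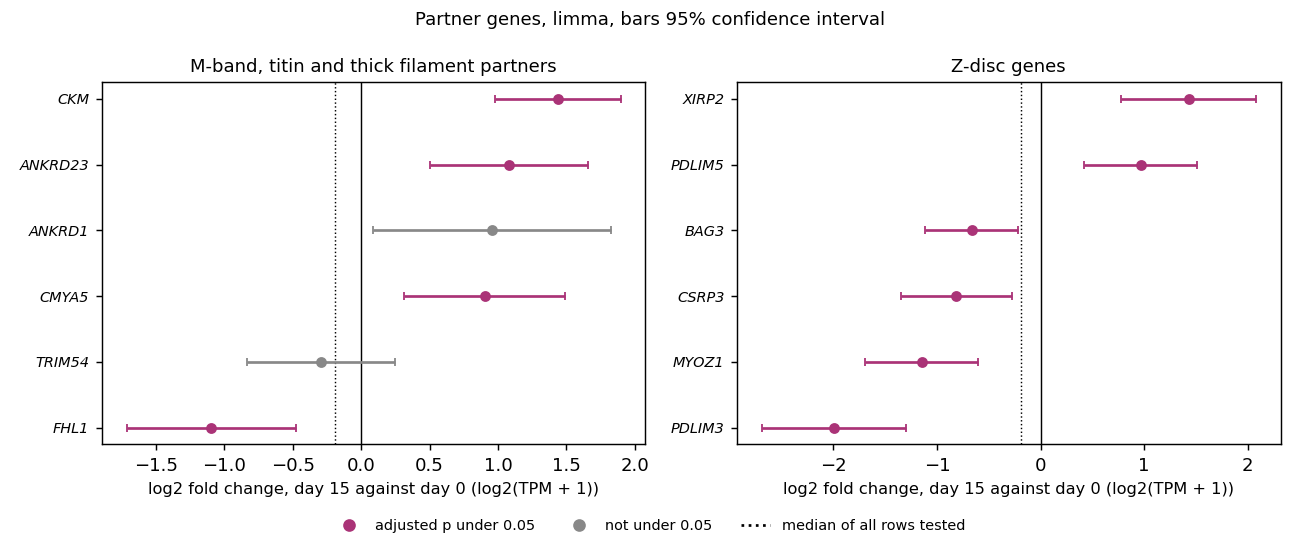
The log2 fold change between day 15 and day 0 is plotted for the partner genes (left) and Z-disc genes (right) that passed between some pair of ages or were the most abundant of their list, with the limma 95% confidence interval. Coloured points passed an adjusted p of 0.05 and the dotted line is the median of all rows tested. XIRP2 met the filter only through its later libraries. Of the partners plotted, CKM is the highest at 1.44 and FHL1 the lowest at -1.09.

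The rows whose pattern was most like each member were found by the root mean square (RMS) difference of log2(TPM + 1), centred on each gene's own mean, over the 9 libraries. Candidates had a symbol and a mean of at least 5 TPM. For MYOM2, whose own RMS distance from its mean was 0.894, the closest were BMF, ADAMTS6 and ALCAM, at 0.273, 0.385 and 0.401. BMF was, like MYOM2, highest in day 7 replicate 6, at 18.7 TPM, with 1.81 to 2.31 TPM in the newborn libraries. For MYOM3 (0.558) they were NKIRAS1, BLVRA and LIAS, at 0.172, 0.176 and 0.185. For TCAP (0.246) they were GPX4, LMF1 and SIRT2, at 0.131, 0.139 and 0.142. For MYL2 (0.340) they were RARRES2, SERF2 and CDC42EP2, at 0.059, 0.107 and 0.110, and for MYH7 (0.199) ACAD10, MRVI1 and FLII, at 0.091, 0.099 and 0.103. MYL3 (0.165) had VPS26C, TBC1D24 and the slow troponin C gene TNNC1, at 0.073, 0.083 and 0.096. MYBPC3 (0.164) had TNFAIP1, ATG2A and ECI1, at 0.068, 0.082 and 0.086, and MYOM1 (0.111) ERI3, COG2 and HEXIM2, at 0.061, 0.063 and 0.064. For the steadier members a small difference means mainly that both genes varied little.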

How the data were processed

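RNA was extracted from frozen left ventricle with a NucleoSpin kit and sequenced from Illumina TruSeq stranded mRNA libraries, per the labels' protocols. TPM values of 22629 rows in the 9 libraries were deposited by the authors as a single table, used whole. The submitters' processing notes list kallisto 0.43.1, HISAT2 2.0.5 and Trimmomatic 0.33, with neither role nor order. Genome build, annotation and use of strand are not stated there. Of 7534 Ensembl identifiers, 915 matched a symbol, and 889 of these gave one not already present. TPM is a share of each library, so depth is unknown and an abundant row shifts all others.

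Rows with at least 1 TPM in at least 3 libraries (12268) were analysed as log2(TPM + 1), where the pseudocount of 1 TPM understates changes of low genes. Limma 3.58.1 in R 4.3.3 fitted 1 mean per age to all 9 libraries (mean-variance trend, 6 residual degrees of freedom), with Benjamini-Hochberg adjustment over all rows and a threshold of 0.05. The step was tested on simulated data. Ratios were tested by exact permutation over the ages, and the ratio of TTN to MYH7, the last of 6 planned, was not computed. Alternatives were pseudocounts of 0.1 and 5, no filter, median-of-ratios scaling, totals without mitochondrial genes and the 20 most abundant rows, a fit on 2 ages, the replicate number as a block, and each library left out. Leaving out both number 5 libraries was added after seeing the data. Named genes were all members, list genes that passed or were the most abundant of their list, and the 3 rows most like each member. RBM20, MYH3, MYH4, MYH7B, MYH8, ACTN2 and the endothelial markers named as not called were chosen after their values were seen. So was the sum of cardiomyocyte markers without ACTC1. Members and lists were chosen with earlier results of these data known.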

Additional observations from a re-analysis of the deposited data

Results flagged for a closer look

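The change of MYOM2 differed between the 2 weeks, with the second-week change minus the first-week change at -2.58 on the log2 scale (limma adjusted p = 0.0328). The second-week change was -0.61, which did not pass (limma adjusted p = 0.397), and the first-week change was 1.96. The call of the contrast was lost in 5 of 16 alternative settings (limma adjusted p up to 0.103). All 3 day 7 libraries were above all 3 newborn ones, while day 15 and day 7 overlapped.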

How the results depend on the processing

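The directions and calls of MYOM2 against day 0 held in each setting tried. The number of members called was 1 without a filter for day 7 against day 0, 1 for day 15 against day 0, and 0 for the contrast of the 2 weeks. After median-of-ratios scaling it was 6 for day 15 against day 0. With totals without mitochondrial genes and the 20 most abundant rows it was 5 for day 7 against day 0 and 6 for day 15 against day 0. With 1 library left out it ranged from 1 to 2 for day 7 against day 0, 1 to 4 for day 15 against day 0, 0 to 0 for day 15 against day 7 and 0 to 1 for the contrast of the weeks. The cause of these shifts was not tested. Without a filter 18573 rows were tested, in place of 12268.

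Replicate numbers do not pair the libraries in the labels, and deviations of same-numbered libraries correlated at -0.213 to 0.170 over 5 pairs. Day 0 replicate 4 and day 15 replicate 1 have numbers that no other library shares, so the block fitted each of them exactly. It also left fewer residual degrees of freedom than the main fit, so a lost call does not by itself show an effect of the replicate number. With the replicate number as a block, 1 member was called for day 7 against day 0, in place of 2, and the number of all rows called was 857 in place of 2031 there, 919 in place of 2933 for day 15 against day 0, 126 in place of 21 for day 15 against day 7 and 28 in place of 236 for the contrast of the weeks. Of the member calls, the block ended those of MYOM3 for day 7 against day 0 (0.78, limma adjusted p = 0.105) and TCAP for day 15 against day 0 (0.30, limma adjusted p = 0.494). Of the list genes it ended the calls of CKM (0.86, limma adjusted p = 0.0885), MYOZ1 (-0.98, 0.0553) and BAG3 (-0.83, 0.0730) for day 7 against day 0. For day 15 against day 0 it ended those of CSRP3 (-1.01, limma adjusted p = 0.0636), MYOZ1 (-1.17, 0.0553), BAG3 (-0.71, 0.172) and XIRP2 (1.24, 0.0526).

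Over all rows, day 7 against day 0 gave 1296 calls without a filter, 3792 after median-of-ratios scaling and 3582 with totals without the abundant rows, and 372 (without day 0 replicate 6) to 2685 with 1 library left out. Day 15 against day 0 gave 2379 calls without a filter, 3814 after median-of-ratios scaling and 3545 with totals without the abundant rows. With 1 library left out, day 15 against day 0 gave 786 (without day 0 replicate 6) to 3275 calls, day 15 against day 7 gave 0 to 59 and the contrast of the weeks 0 to 717. That contrast gave 44 calls without a filter, 588 after median-of-ratios scaling, 700 with totals without the abundant rows, 141 with a pseudocount of 0.1 TPM and 523 without both number 5 libraries. Day 15 against day 7 gave 5 to 126 calls in the settings that kept every library. It gave 2 in the fit on those 2 ages alone and 144 without both number 5 libraries.

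Values near 0 that changed sign were all uncalled. For day 15 against day 7, MYOM1 was 0.18 after median-of-ratios scaling, 0.08 with totals without the abundant rows, 0.09 with the replicate block and 0.05 without both number 5 libraries. MYL2 was 0.17, 0.07, 0.08 and 0.10 in the same settings. MYBPC3 and MYH7 were 0.07 and 0.07 after median-of-ratios scaling, and MYH7 was 0.01 without both number 5 libraries. For day 15 against day 0, MYL3 was 0.23 after median-of-ratios scaling and 0.24 with totals without the abundant rows. For day 7 against day 0, MYH7 was 0.01 with totals without the abundant rows and TCAP -0.04 with the replicate block. With 1 library left out, for day 15 against day 7, MYOM1 ranged from -0.06 to 0.06, MYL2 from -0.24 to 0.10 and MYH7 from -0.19 to 0.01. MYL3 ranged from -0.05 to 0.02 for day 15 against day 0 and TCAP from -0.04 to 0.11 for day 7 against day 0.

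The log2 ratio of day 15 over day 0 ranged, with 1 library left out, from 1.02 to 1.39 for MYOM2 to MYOM1 and from 0.64 to 1.19 for MYOM3 to MYOM1. It ranged from 0.36 to 0.57 for MYBPC3 to MYH7, 0.63 to 1.06 for MYL2 to MYH7 and 0.14 to 0.37 for MYL3 to MYH7.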

Other observations

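In the RefSeq annotation of Sscrofa11.1, the protein-coding genes after MYH7 are LOC100736765, CMTM5 and IL25, in that order. CMTM5 had 137, 113 and 163 TPM in day 0 replicates 4, 5 and 6, 3.33, 40.1 and 6.27 TPM in day 7 replicates 2, 5 and 6, and 19.4, 2.06 and 11.2 TPM in day 15 replicates 1, 2 and 6. IL25 had 98.6, 115 and 119 TPM, 2.34, 34.0 and 6.33 TPM, and 14.9, 1.503 and 9.95 TPM in the same libraries. EFS and SLC22A17, which follow, had 13.96, 13.97 and 21.2 TPM and 13.6, 17.0 and 21.3 TPM at day 0, 3.13, 3.60 and 3.14 TPM and 9.76, 8.96 and 7.44 TPM at day 7, and 2.37, 1.74 and 1.94 TPM and 5.64, 4.35 and 4.73 TPM at day 15. The annotation behind the deposited values is not stated, so whether reads of one gene of this region were counted for another cannot be told, and the levels of CMTM5 and IL25 are uncertain. MYH7 itself did not pass between any pair of ages. LOC100736765 is not analysed here. These genes were chosen after their values were seen.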
